A study of Mus musculus with 6 samples.

Results

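The translation initiation factor genes described here were the protein-coding rows of the deposited expression table whose gene symbol begins with Eif followed by a digit from 1 to 6. Eif2ak3 and Eif2s3y were left out of that set, which held 53 of the 22046 protein-coding rows and of the 54532 rows in all. Poly(A) RNA was sequenced from pancreatic islets, clusters of hormone-secreting cells, of mice that were 7 weeks old. The bKO group comprised 3 libraries from Ythdc1-βKO mice, in which Ythdc1 is knocked out in beta cells, the insulin-producing cells. The control group comprised 3 libraries from Ythdc1flox/flox mice, which carry the floxed gene without the knockout. YTHDC1 is a nuclear protein that binds N6-methyladenosine in RNA, and the comparison asks how islet mRNA levels differ when beta cells lack it. The Cre line behind the knockout is not given in the sources used here, and whole islets contain the other endocrine cell types, blood vessels and immune cells as well. For bKO replicates 2 and 3 the description field names Ythdc2 and Ythdc3, whereas the genotype label names Ythdc1.

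Initiation begins when eIF2 brings the initiator tRNA to the small ribosomal subunit, together with eIF1, eIF1A, eIF3 and eIF5. The cap-binding protein eIF4E, the scaffold eIF4G and the helicase eIF4A then place this complex on the mRNA, and eIF5B joins the large subunit. Cells throttle the process at eIF2, whose phosphorylation blocks recycling by eIF2B, and at eIF4E, which is sequestered by the 4E-binding proteins. Beta cells make proinsulin in large amounts and are known for their reliance on the kinase PERK, which phosphorylates eIF2.

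Levels are FPKM, that is, fragments counted per kilobase of a gene after scaling for library depth. The length used counts all exon bases of a gene, which can exceed those of its mRNA. Eif3e has 6719 exon bases, against 1506 bases in its longest coding transcript, and Eif4ebp1 has 2196 against 1997. FPKM of different genes therefore compare only roughly, which bears less on comparisons of 1 gene between libraries. Every value could be turned back into whole reads, and totals ran from 17145960 to 17770058 reads in the bKO libraries and from 16863329 to 18240339 in the control libraries. Ythdc1 was listed at 3.81, 3.79 and 3.87 FPKM in bKO and at 5.76, 6.46 and 6.18 FPKM in control (log2 fold change -0.56, SE 0.058, limma adjusted p = 0.0014). It was low in all 3 bKO libraries, including the pair whose descriptions name other Ythdc genes. The insulin genes Ins1 and Ins2 took 15.2 to 16.2% of reads in bKO and 21.6 to 23.3% in control. In such bulk samples, fewer cells of a type and less RNA per cell cannot be told apart.

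Of the 53 initiation factor genes, 52 passed the filter of at least 0.5 FPKM in at least 3 libraries. Eif4e1b, an oocyte-enriched relative of eIF4E, was at 0 in all 6 libraries and was not tested. A gene is called here when limma, fitted to log2(FPKM + 1) over all 15717 tested genes, gave a Benjamini-Hochberg adjusted p under 0.05. In bKO, 10 initiation factor genes were called, which is 19.2% of those tested, beside 20.3% of all tested genes. The 3 that rose (Eif4ebp1, Eif5 and Eif3c) made up 5.77%, beside 8.96% of all tested genes. The 7 that fell (Eif3m, Eif1b, Eif4a2, Eif3e, Eif2b5, Eif4b and Eif2s3x) made up 13.5%, beside 11.4%. Without bKO replicate 1 the members that fell numbered 3, and without control replicate 1 they numbered 4, beside 7.06% and 6.74% of all tested genes. FPKM of bKO and control did not overlap for 21 members, or 40.4%, beside 40.1% of all tested genes. Each of these shares lay near that of all tested genes, so what follows concerns single members rather than the set.

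Fold changes of the set were small. The median log2 fold change, bKO minus control, was -0.02 over the 52 members and -0.01 over all tested genes. The median size of the change regardless of sign was 0.08 for members and 0.15 for all tested genes, and 27 members lay within 0.1 of 0. Eif4ebp1 alone passed 0.5 on the log2 scale, a size reached by 9.40% of all tested genes. Members were abundant, with a median level of 16.2 FPKM beside 4.56 FPKM for all tested genes. The pooled members took 0.635, 0.628 and 0.639% of reads in the bKO libraries and 0.585, 0.593 and 0.586% in the control libraries. That share is relative to a total in which the insulin genes were lower in bKO.

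**Figure D1:**
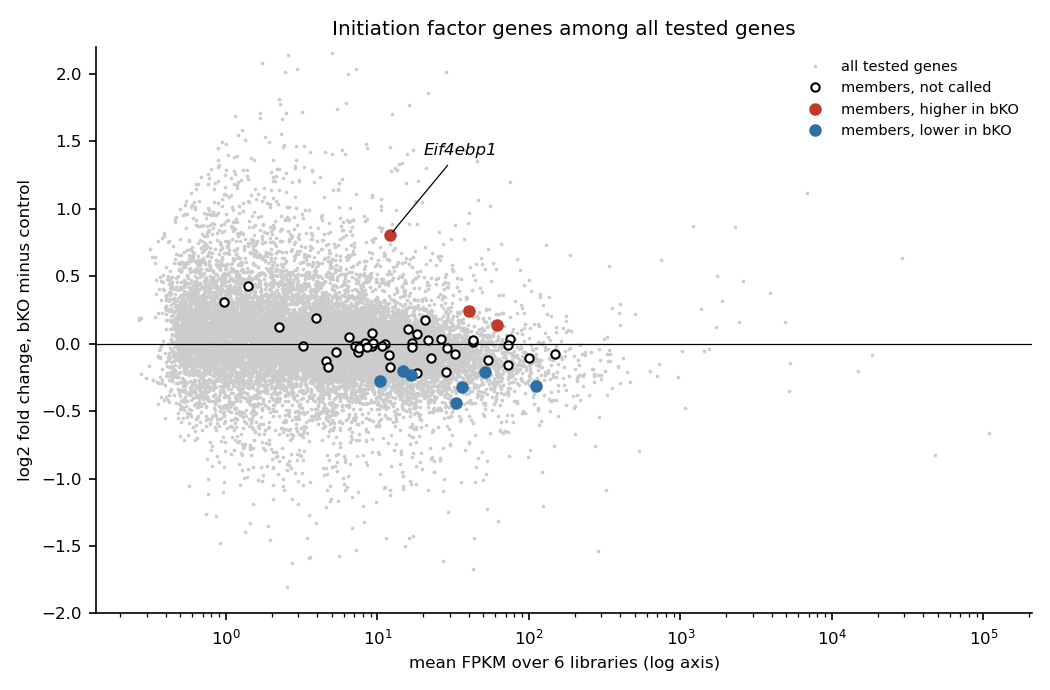
Log2 fold change (bKO minus control, on the log2(FPKM + 1) scale) against mean FPKM over the 6 libraries on a log axis, for all 15717 tested genes (grey) and the 52 tested initiation factor genes (open, not called; red, higher in bKO; blue, lower in bKO). Most members sit close to 0 among the more abundant genes, Eif4ebp1 stands above the others at 0.81, and 23 genes lie outside the plotted range of -2 to 2.2.

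The scaling of the libraries moves the balance of directions. The deposited FPKM carry size factors, and with libraries scaled by their total reads the median log2 fold change of all genes was 0.13 in place of -0.01. Under total scaling 16 members were called higher and 2 lower in bKO, and 83.4% of all called genes were higher in place of 44.1%. Members kept their place relative to the other genes, with a median 0.01 above that of all genes under total scaling and 0.01 below it with size factors. The 10 called members kept their sign under both scalings, and the 2 lower calls under total scaling were Eif4a2 and Eif3m.

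**Figure D2:**
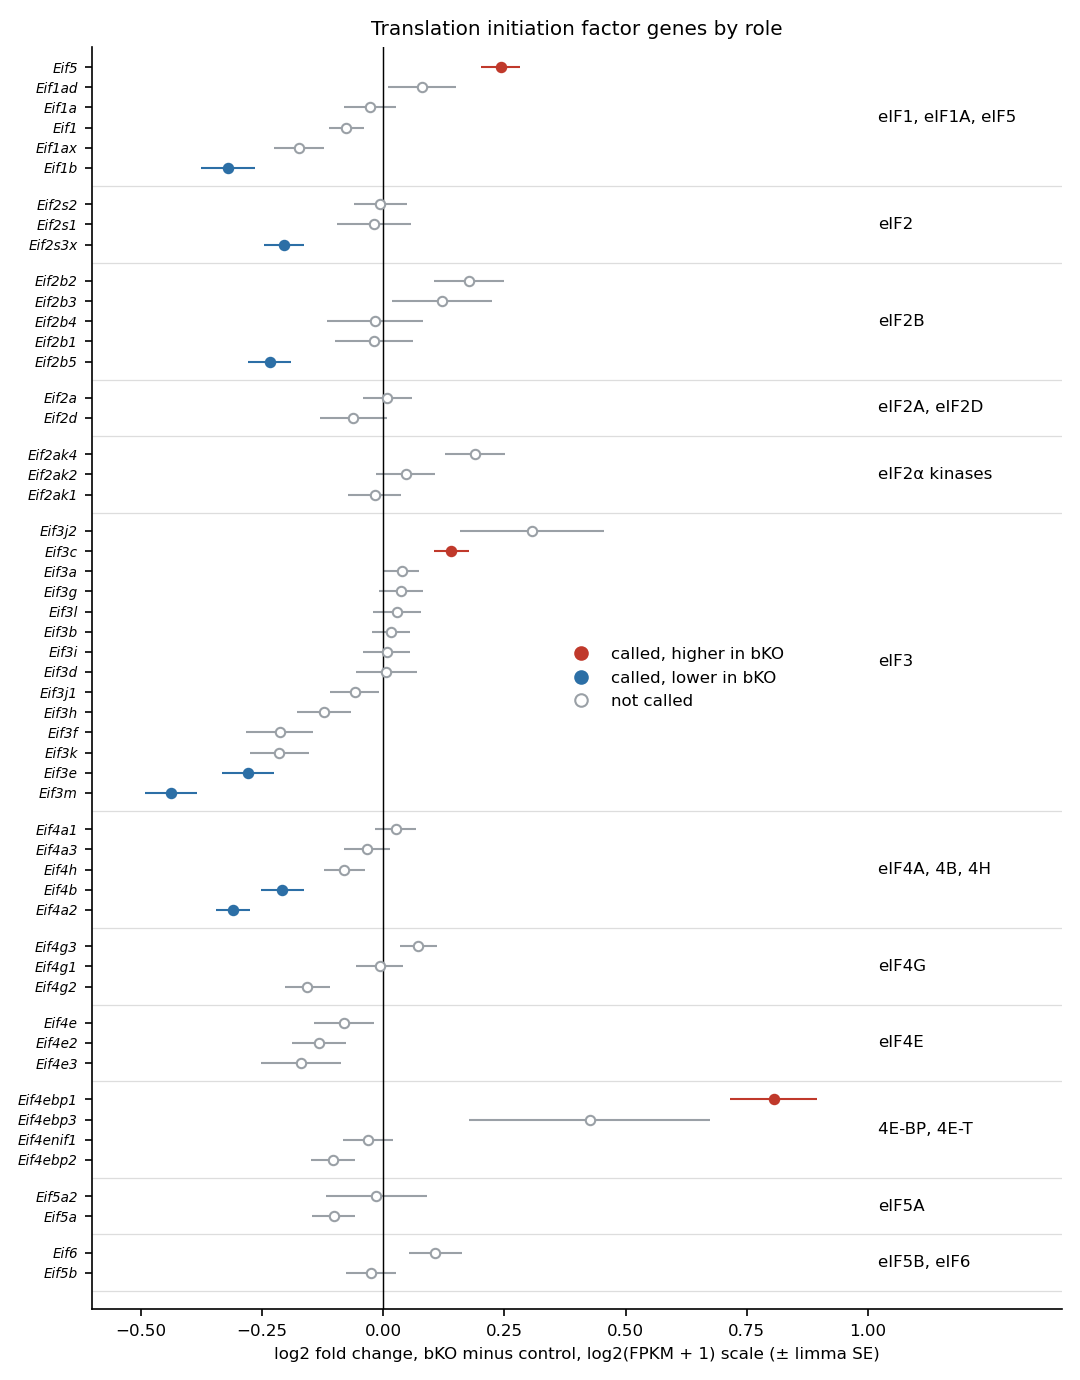
Log2 fold change (bKO minus control, log2(FPKM + 1) scale) with the limma standard error for each of the 52 tested members, grouped by role in initiation and sorted by fold change within a role; filled points are called members (red, higher in bKO; blue, lower in bKO). The widest bars belong to Eif4ebp3 and Eif3j2, which had few reads, and the called members are spread over 6 roles.

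The eIF4E-binding proteins held the largest change of the set. Eif4ebp1 (ENSMUSG00000031490, chromosome 8, 27260329 to 27276674, GRCm38, plus strand) encodes 4E-BP1, which blocks eIF4E until mTORC1 phosphorylates it, and is known as a target gene of the stress transcription factor ATF4 in mouse beta cells. It was measured at 17.2, 16.3 and 13.5 FPKM in the bKO libraries, against 8.12, 8.93 and 8.46 FPKM in the control libraries. Every bKO library lay above every control library, and the bKO mean was 1.84 times the control mean. Eif4ebp1 averaged 15.7 ± 1.9 FPKM in bKO and 8.50 ± 0.41 FPKM in control (SD, n = 3 each), a log2 fold change of 0.81 (SE 0.090, limma adjusted p = 0.0019). It was called in each of 16 alternative settings, with fold changes of 0.74 to 0.97. Among the 1408 genes that rose in bKO it ranked 258 by fold change.

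Its relatives did not pass the test. Eif4ebp2, which encodes 4E-BP2, was measured at 20.9, 22.0 and 21.8 FPKM in bKO and at 23.5, 24.0 and 22.2 FPKM in control (log2 fold change -0.10, SE 0.045, limma adjusted p = 0.16). The groups did not overlap, and under total scaling the sign turned, with a fold change of 0.07. Eif4ebp3 had 2.31, 1.56 and 1.31 FPKM in bKO and 1.25, 0.390 and 1.58 FPKM in control, and the groups overlapped (log2 fold change 0.43, SE 0.25, limma adjusted p = 0.28). Only 72 reads in bKO and 39 in control stood behind Eif4ebp3, which shares 501 of its 744 exon bases with an overlapping gene on its own strand. Eif4enif1, which encodes the eIF4E transporter 4E-T, had 7.34 to 7.62 FPKM in bKO and 7.27 to 7.92 FPKM in control.

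The genes of the cap-binding proteins themselves were not called. Eif4e, the main cap-binding factor, had 11.3, 12.1 and 11.3 FPKM in bKO and 12.1, 11.6 and 13.3 FPKM in control, and the groups overlapped (log2 fold change -0.08, SE 0.062, limma adjusted p = 0.40). Eif4e3, an atypical cap-binding relative, had 10.0 to 12.5 FPKM in bKO and 12.0 to 13.6 FPKM in control (limma adjusted p = 0.20). Eif4e2, which encodes the repressive cap-binding protein 4EHP, had 4.14 to 4.55 FPKM in bKO and 4.76 to 4.88 FPKM in control without overlap (log2 fold change -0.13, limma adjusted p = 0.14). Over these 3 genes the fold changes ran from -0.17 to -0.08, and under total scaling those of Eif4e (0.08) and Eif4e2 (0.01) turned.

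Ratios of a pair of genes within 1 library do not depend on how libraries are scaled. The 6 pairs computed were chosen after the values had been seen. In each pair the numerator was a called member, so a ratio is not separate evidence for that call. The ratio of Eif4ebp1 to Eif4e was 1.53, 1.35 and 1.19 in bKO and 0.673, 0.773 and 0.636 in control. The ratio of Eif4ebp1 to Eif4ebp2 was 0.826, 0.741 and 0.620 in bKO and 0.345, 0.372 and 0.382 in control. In FPKM, Eif4ebp1 was thus above Eif4e in every bKO library and below it in every control library. For both ratios a two-sided exact permutation test gave p = 0.1, the smallest that 3 against 3 libraries allow, and 0.12 after adjustment over the 6 ratios. Eif4ebp1 was higher and Eif4ebp2 lower in every bKO library than in any control library, so the ratio of these genes had to be apart. The ratio to Eif4e was likewise set by the distance between the groups in Eif4ebp1, since Eif4e ranged little.

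**Figure D3:**
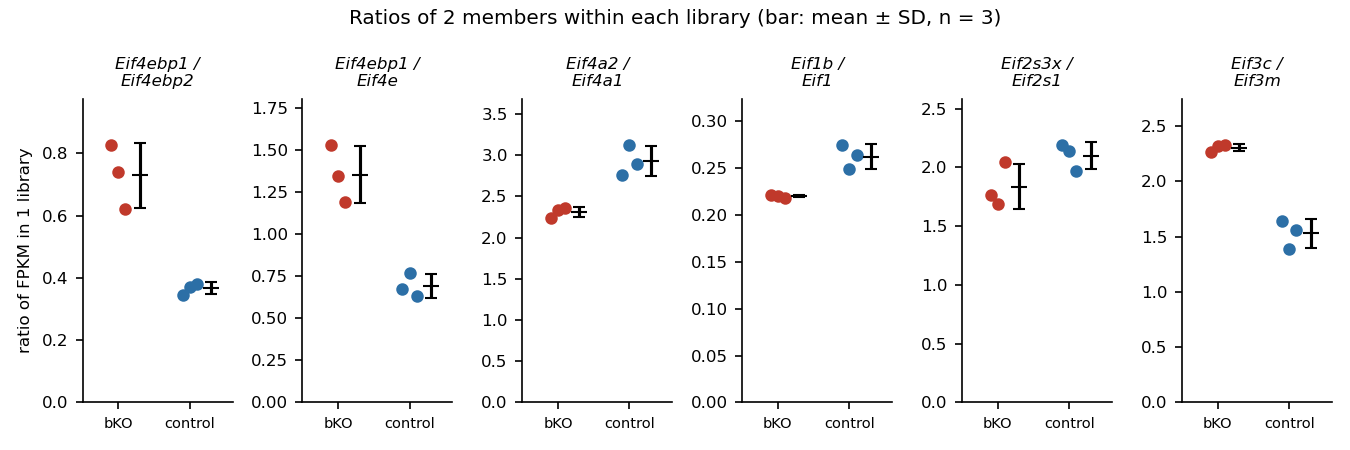
Ratio of the FPKM of 2 members within each library (points) with the mean and SD of each group (bars, n = 3), for 6 pairs, bKO in red and control in blue. The groups are apart in 5 pairs and overlap for Eif2s3x over Eif2s1. For Eif4ebp1 over Eif4ebp2 and Eif3c over Eif3m they had to be apart, because each gene was already apart and in opposite directions. In the other pairs that were apart, the called numerator was already far enough apart to set the outcome.

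Of the helicase group, Eif4a2 and Eif4b fell. Eif4a2 (chromosome 16, 23107444 to 23114136, GRCm38, plus strand) encodes eIF4AII, a DEAD-box helicase closely related to eIF4AI, the product of Eif4a1. Eif4a2 was measured at 97.4, 99.1 and 101.9 FPKM in bKO, against 121.5, 125.5 and 123.7 FPKM in control. The groups were well apart, with a log2 fold change of -0.31 (SE 0.035, limma adjusted p = 0.0019), and Eif4a2 was called in each of 16 alternatives. Eif4a1 had 43.5, 42.4 and 43.3 FPKM in bKO and 44.0, 40.2 and 42.7 FPKM in control, with overlap (log2 fold change 0.03, SE 0.043, limma adjusted p = 0.72). The ratio of Eif4a2 to Eif4a1 was 2.24, 2.34 and 2.35 in bKO and 2.76, 3.12 and 2.90 in control (two-sided exact permutation p = 0.1, adjusted 0.12). So Eif4a2, the gene of this pair with the higher FPKM, was lower relative to its paralog in every bKO library. The levels of Eif4a2 were already far enough apart to set this, so the ratio adds nothing to its call.

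Reads of the helicase genes can be shared with copies elsewhere. The pseudogene Eif4a-ps4 matches Eif4a1 at 99.9% over 1218 bases and was listed at 24.9 to 26.4 FPKM in bKO and 24.2 to 27.9 FPKM in control. The pseudogene Gm2999, near-identical to a stretch of Eif4a2, had 23.2 to 26.8 FPKM in bKO and 28.0 to 33.9 FPKM in control. How the authors' counting split such reads is not given in the sources used here, so the levels of Eif4a1 and Eif4a2 are uncertain to that extent. Eif4a2 also shares exon bases with 7 other genes. The largest of these overlaps is 194 of its 5338 exon bases with Rfc4 on the opposite strand, and the strand setting of the counting is not given.

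Eif4b (chromosome 15, 102073773 to 102097173, GRCm38, plus strand) encodes the eIF4A cofactor eIF4B. It had 45.5, 47.9 and 48.6 FPKM in bKO, against 55.1, 56.9 and 52.7 FPKM in control. All bKO libraries were below all control libraries (log2 fold change -0.21, SE 0.044, limma adjusted p = 0.019). The call was among the less stable, being lost in 7 of 16 alternatives. Without bKO replicate 1 the adjusted p was 0.068, without bKO replicate 2 it was 0.053, without control replicate 1 it was 0.060, and without control replicate 2 it was 0.053, all by limma. With quantile normalization the adjusted p was 0.11 and with total scaling 0.53, by limma. Eif4h, the other cofactor, and Eif4a3, which is known mainly as a subunit of the exon junction complex, were not called. Eif4h had 30.8 to 32.0 FPKM in bKO and 31.9 to 34.5 FPKM in control.

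**Figure D4:**
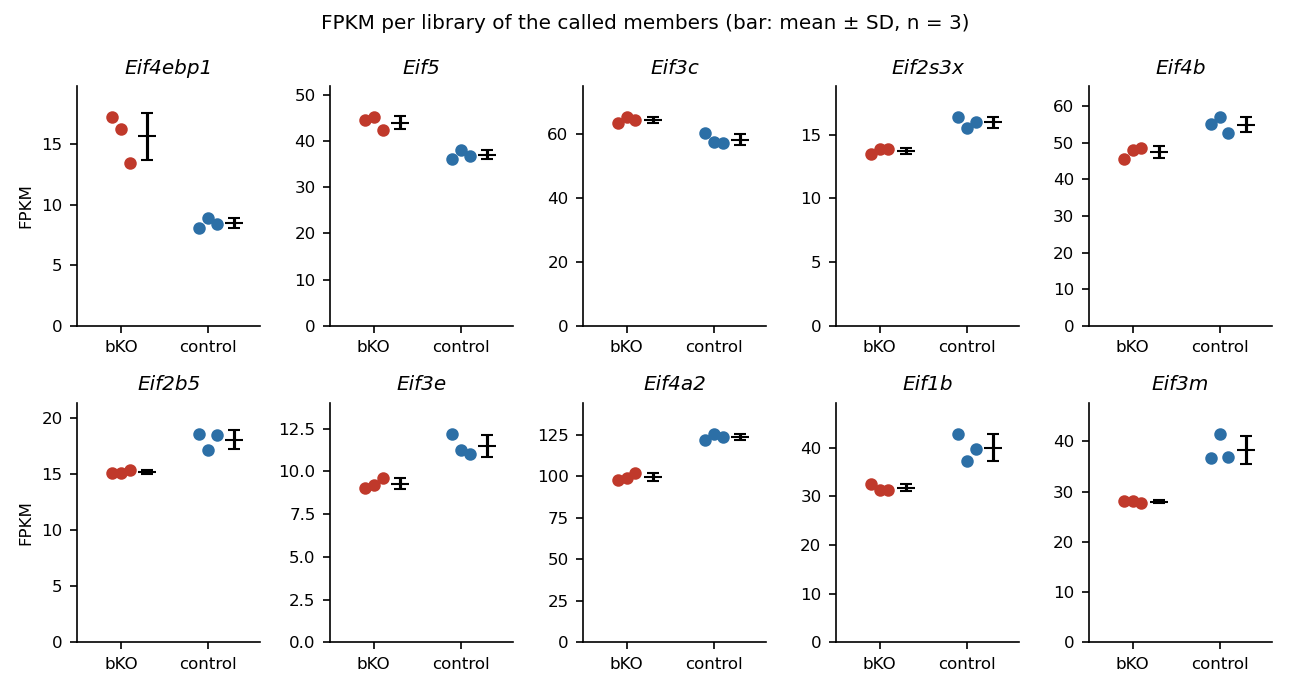
FPKM of the 10 called members in each library (points) with the mean and SD of each group (bars, n = 3), bKO in red and control in blue, axes from 0. The groups do not overlap in any of the 10, and relative to its control mean the distance is widest for Eif4ebp1.

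The scaffolds of the eIF4G family were not called. Eif4g2, which encodes DAP5, a relative of eIF4G that lacks the eIF4E-binding region, was at 68.3, 68.2 and 69.8 FPKM in bKO and at 78.9, 79.7 and 72.1 FPKM in control. It missed the threshold without overlap of the groups (log2 fold change -0.16, SE 0.046, limma adjusted p = 0.056), and its sign turned under total scaling, at 0.02. Eif4g2 was called lower in 3 of 16 alternatives. Eif4g1, the main scaffold, had 70.0, 70.7 and 75.8 FPKM in bKO and 74.5, 74.0 and 69.1 FPKM in control, with overlap (log2 fold change -0.01, limma adjusted p = 0.93). Eif4g3 had 18.3 to 18.9 FPKM in bKO and 17.4 to 18.1 FPKM in control.

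The eIF3 complex, the largest initiation factor, binds the small subunit and bridges it to eIF4G. Its 14 genes spanned 0.971 to 74.5 FPKM. Of them 1 rose, 2 fell and 11 were not called, beside 8.96% higher and 11.4% lower over all tested genes. Eif3m (chromosome 2, 104999656 to 105017080, GRCm38, minus strand) had the largest fall of all members, at 28.0, 28.2 and 27.7 FPKM in bKO, against 36.7, 41.5 and 36.8 FPKM in control. The bKO libraries differed little from each other, and each was below every control library (log2 fold change -0.44, SE 0.054, limma adjusted p = 0.0027). Eif3m was called in each of 16 alternatives, with fold changes of -0.47 to -0.27. A pseudogene, Gm7658, matches it at 98.5% over 1125 bases but was listed at only 0.914 to 1.28 FPKM in bKO and 0.878 to 2.43 FPKM in control, and Ccdc73 covers 82 exon bases of Eif3m on the opposite strand.

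Eif3e (chromosome 15, 43250058 to 43282719, GRCm38, minus strand), another subunit with a PCI domain, was at 9.06, 9.18 and 9.64 FPKM in bKO and at 12.2, 11.3 and 11.0 FPKM in control. The groups did not overlap (log2 fold change -0.28, SE 0.054, limma adjusted p = 0.013). By limma the adjusted p was 0.053 without bKO replicate 1 and 0.11 with total scaling. Eif3c (chromosome 7, 126546455 to 126566411, GRCm38, minus strand), a core scaffold subunit of eIF3, went the other way. It had 63.6, 65.4 and 64.4 FPKM in bKO, against 60.3, 57.6 and 57.2 FPKM in control, again without overlap (log2 fold change 0.14, SE 0.036, limma adjusted p = 0.036). This was the smallest change called, and by limma the adjusted p lay between 0.073 and 0.12 without bKO replicate 1, 2 or 3 or control replicate 2 or 3.

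Calls within this 1 complex thus went in both directions, the rise being that of Eif3c, which was called in 10 of 16 alternatives. The count of calls lay near the share over all tested genes and is not read as a result about the complex. The ratio of Eif3c to Eif3m was 2.27, 2.32 and 2.33 in bKO and 1.64, 1.39 and 1.56 in control, without overlap (two-sided exact permutation p = 0.1, adjusted 0.12). Because Eif3c was higher and Eif3m lower in every bKO library than in any control library, this ratio had to be apart. It adds nothing to the calls of the single genes. Eif3a, the subunit gene with the highest FPKM, had 73.8, 74.5 and 78.4 FPKM in bKO. In control it had 73.3, 73.7 and 73.6 FPKM (log2 fold change 0.04, limma adjusted p = 0.50). Eif3k (log2 fold change -0.21, limma adjusted p = 0.051) and Eif3f (-0.21, limma adjusted p = 0.071) missed the threshold, each without overlap between the groups. Eif3k was called lower in 4 of 16 alternatives and Eif3f in 3. Eif3b, Eif3d, Eif3g, Eif3i and Eif3l all lay within 0.04 of 0. Eif3j1 and Eif3j2 are 99.4% identical over 2379 bases, so their split is uncertain, and Eif3j2 had only 156 reads in bKO and 91 in control.

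Start codon selection factors went in both directions. Eif5 (chromosome 12, 111538016 to 111546752, GRCm38, plus strand) encodes the GTPase-activating protein of eIF2. It was measured at 44.4, 45.1 and 42.3 FPKM in bKO, against 36.1, 38.1 and 36.8 FPKM in control. All bKO libraries were higher (log2 fold change 0.24, SE 0.041, limma adjusted p = 0.0085), and the call held in each of 16 alternatives. The snoRNA gene Snora28 lies within 127 of the 6820 exon bases of Eif5, on the same strand.

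Eif1b (chromosome 9, 120492232 to 120495330, GRCm38, plus strand), a paralog of the start codon fidelity factor gene Eif1, was at 32.6, 31.3 and 31.3 FPKM in bKO and at 42.8, 37.3 and 39.7 FPKM in control. The groups did not overlap (log2 fold change -0.32, SE 0.055, limma adjusted p = 0.0089), and only total scaling ended the call, with a limma adjusted p of 0.078. An antisense gene, D830035M03Rik, covers 143 of its 1125 exon bases. Eif1 had the highest FPKM of the whole set, at 147.5, 142.0 and 143.5 FPKM in bKO. In control it was at 156.1, 150.0 and 150.5 FPKM (log2 fold change -0.08, limma adjusted p = 0.18). The ratio of Eif1b to Eif1 was 0.221, 0.221 and 0.218 in bKO and 0.274, 0.249 and 0.264 in control (two-sided exact permutation p = 0.1, adjusted 0.12). As in the helicase pair, 1 paralog was lower relative to the other in every bKO library. The levels of Eif1b were already far enough apart to set this, so the ratio adds nothing to its call. Eif1ax, the X-linked gene of eIF1A, had 4.23 to 4.49 FPKM in bKO and 5.03 to 5.08 FPKM in control without overlap (log2 fold change -0.17, limma adjusted p = 0.056). Eif1ax was called lower in 1 of 16 alternatives. Eif1a, its autosomal relative, overlapped between the groups at 16.6 to 16.8 FPKM in bKO and 16.0 to 18.2 FPKM in control.

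eIF2 consists of an alpha, a beta and a gamma subunit. Eif2s3x (chromosome X, 94188707 to 94212862, GRCm38, minus strand), which encodes the gamma subunit that holds GTP and the initiator tRNA, fell. It was at 13.4, 13.8 and 13.9 FPKM in bKO and at 16.4, 15.5 and 16.0 FPKM in control (log2 fold change -0.20, SE 0.041, limma adjusted p = 0.015). Without bKO replicate 1 the limma adjusted p was 0.060, without control replicate 1 it was 0.055, and with total scaling it was 0.48. The groups were apart, but the call rests on single libraries to that extent.

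The Y-linked copy, Eif2s3y, is not a member and was not called, at 15.9, 15.3 and 14.4 FPKM in bKO and 13.1, 15.0 and 12.9 FPKM in control (log2 fold change 0.15, SE 0.068, limma adjusted p = 0.18). The summed FPKM of the X and Y copies was 28.3 to 29.4 in bKO and 28.9 to 30.5 in control, and these ranges overlap. Xist, expressed from the inactive X of female cells, stayed at or below 0.038 FPKM in all 6 libraries. A pseudogene of Eif2s3x, Gm2223, matches it at 100% over 1350 bases and was listed at 0.981 to 1.39 FPKM in bKO and 0.966 to 1.89 FPKM in control.

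Eif2s1, which encodes the alpha subunit that the stress kinases phosphorylate, had 7.60, 8.18 and 6.77 FPKM in bKO and 7.48, 7.26 and 8.13 FPKM in control (log2 fold change -0.02, SE 0.076, limma adjusted p = 0.88). Eif2s2, the beta subunit gene, had 10.8 to 11.6 FPKM in bKO and 10.6 to 11.7 FPKM in control, and a pseudogene, Gm9892, matches it at 99.5% over 992 bases. Both genes overlapped between the groups. The ratio of Eif2s3x to Eif2s1 overlapped as well, at 1.77, 1.69 and 2.05 in bKO and 2.19, 2.14 and 1.97 in control (two-sided exact permutation p = 0.2, adjusted 0.2).

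eIF2B exchanges GDP for GTP on eIF2 and is the target of phosphorylated eIF2. Eif2b5 (chromosome 16, 20498817 to 20509323, GRCm38, plus strand), the gene of the catalytic epsilon subunit, was at 15.1, 15.1 and 15.4 FPKM in bKO and at 18.6, 17.1 and 18.5 FPKM in control. It fell without overlap between the groups (log2 fold change -0.23, SE 0.045, limma adjusted p = 0.013). The limma adjusted p was 0.052 without bKO replicate 1, 0.0502 without control replicate 1 and 0.30 with total scaling. The other 4 subunit genes were not called and overlapped between the groups. Eif2b2 (beta) had 21.3 to 22.5 FPKM in bKO and 17.4 to 21.4 FPKM in control (log2 fold change 0.18, limma adjusted p = 0.13). Eif2b2 was called higher in 3 of 16 alternatives. Eif2b3 (gamma) had 2.13 to 2.53 FPKM in bKO and 1.71 to 2.34 FPKM in control. Eif2b1 (alpha) had 8.11 to 10.1 FPKM in bKO and 8.88 to 9.80 FPKM in control, and Eif2b4 (delta) had 10.6 to 10.7 FPKM in bKO and 9.62 to 12.9 FPKM in control.

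None of the 3 eIF2 kinase genes in the set was called. Eif2ak4, which encodes the amino acid sensor GCN2, was at 4.34, 4.13 and 4.33 FPKM in bKO and at 3.64, 3.39 and 3.84 FPKM in control. The groups did not overlap but the test missed the threshold (log2 fold change 0.19, SE 0.062, limma adjusted p = 0.076). It was called in 3 of 16 alternatives, among them total scaling, with a fold change of 0.33 (limma adjusted p = 0.013). Eif2ak2, the double-stranded RNA sensor PKR, had 6.11 to 7.04 FPKM in bKO and 6.20 to 6.46 FPKM in control (limma adjusted p = 0.63). Eif2ak1, the heme-regulated kinase HRI, had 6.81 to 7.37 FPKM in bKO and 6.82 to 7.45 FPKM in control (limma adjusted p = 0.85).

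The remaining members were not called. Eif5a, the gene of the hypusine-containing factor eIF5A, which acts mainly in elongation, was at 95.7, 94.6 and 99.0 FPKM in bKO and at 105.4, 107.5 and 98.2 FPKM in control, with overlap (log2 fold change -0.10, SE 0.045, limma adjusted p = 0.16). Its paralog Eif5a2 was far lower, at 2.68 to 3.67 FPKM in bKO and 3.02 to 3.57 FPKM in control. Eif6, whose product keeps the large subunit from joining too early, had 15.3 to 17.5 FPKM in bKO and 15.0 to 15.4 FPKM in control (limma adjusted p = 0.21). Eif5b, the subunit joining factor, lay at 8.10 to 8.81 FPKM in bKO and 8.28 to 8.82 FPKM in control. Eif2a and Eif2d, whose products can deliver initiator tRNA without eIF2, had log2 fold changes of 0.01 and -0.06. Over all 42 uncalled members the fold change ran from -0.21 to 0.43.

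**Figure D5:**
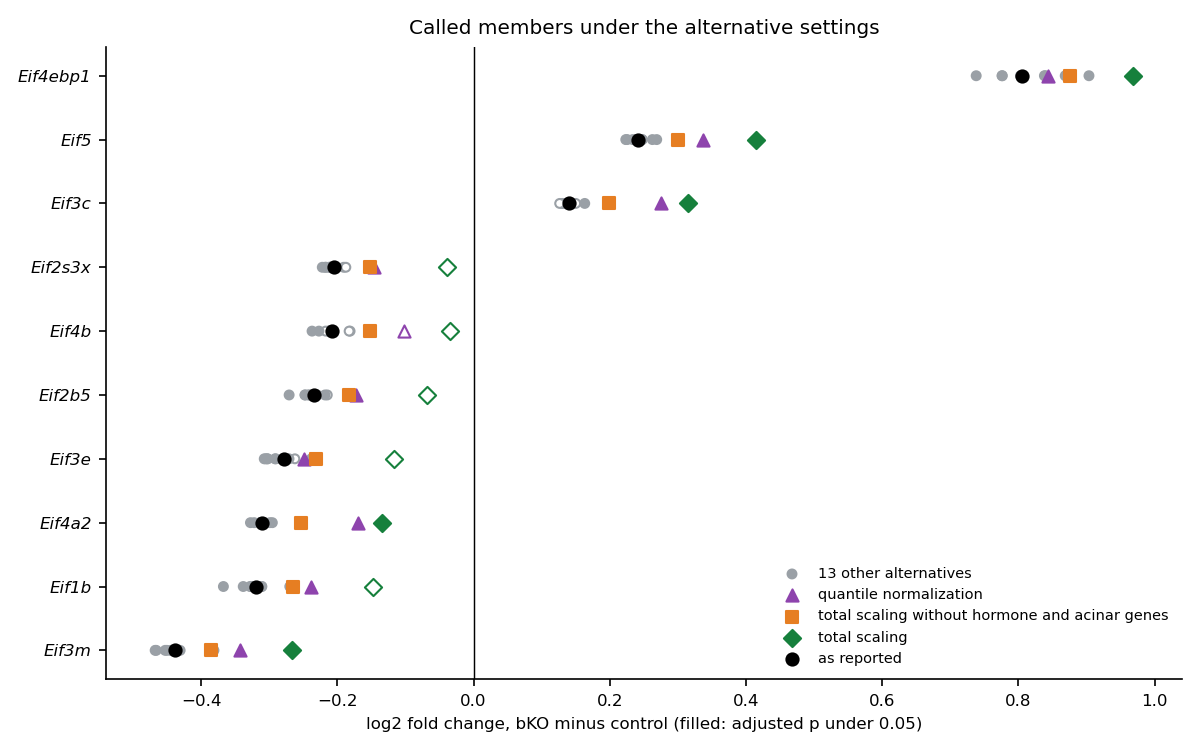
Log2 fold change (bKO minus control) of each called member as reported (black) and under 16 alternative settings, with total scaling, total scaling without hormone and acinar genes, and quantile normalization marked apart; filled symbols have a limma adjusted p under 0.05. No member changes sign, and the 3 scalings shift all members upward, most under total scaling.

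The mRNAs of many translation factors are known to begin with a cytosine followed by a run of pyrimidines, the tract through which mTORC1 sets their translation. Start sites from RefSeq on GRCm38.p6 were matched by symbol to 41 members, and 8 called members were among them, so their 60 bases around the start are shown to compare the letters of members that rose with those that fell. Each runs 5′ to 3′ on the gene's own strand with 30 bases on either side of the start, and capitals mark a C within 5 bases of the start that is followed by at least 5 pyrimidines.
Eif5, rose, chr12:111538071-111538130, plus: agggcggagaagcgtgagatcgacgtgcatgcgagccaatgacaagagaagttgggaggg
Eif3c, rose, chr7:126566337-126566396, minus: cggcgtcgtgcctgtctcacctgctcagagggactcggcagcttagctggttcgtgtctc
Eif3m, fell, chr2:105016998-105017057, minus: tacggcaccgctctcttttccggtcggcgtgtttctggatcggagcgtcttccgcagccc
Eif1b, fell, chr9:120492576-120492635, plus: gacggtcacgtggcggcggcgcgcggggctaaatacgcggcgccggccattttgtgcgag
Eif4a2, fell, chr16:23107438-23107497, plus: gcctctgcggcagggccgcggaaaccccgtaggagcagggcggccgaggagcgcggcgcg
Eif2b5, fell, chr16:20498787-20498846, plus: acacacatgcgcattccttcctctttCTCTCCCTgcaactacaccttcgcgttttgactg
Eif4b, fell, chr15:102073743-102073802, plus: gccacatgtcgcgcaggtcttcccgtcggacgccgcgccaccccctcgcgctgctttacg
Eif2s3x, fell, chrX:94212622-94212681, minus: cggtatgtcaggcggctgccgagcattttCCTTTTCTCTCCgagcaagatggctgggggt

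The tract stood at the RefSeq start of Eif2b5 and Eif2s3x, which fell, and of 5 uncalled members (Eif2ak4, Eif3f, Eif2b2, Eif3l and Eif4g1). These starts can differ from the gene ends of the deposited table. In that table the minus-strand gene Eif2s3x ends at 94212862 and the plus-strand gene Eif1b begins at 120492232, both outside the stretches shown. Presence or absence of a tract within 5 bases therefore depends on the start site used. In all, 7 of 41 members held it, beside 11.9% of the 27025 genes with a start site. Other motifs were searched on both strands from 250 bases before to 50 after each start. The ETS motif CCGGAAG was found for 16 of 41 members, beside 9.93% of all genes, and the E-box CACGTG for 10 of 41 members, beside 8.09%. The cAMP response element TGACGTCA was found for 0 of 41 members, beside 2.03%, and the motif TGATGNAA, known from ATF4 target genes, for Eif2s3x alone, beside 4.51%. Members had 54 start windows, and neither the level of a gene nor its base composition was matched in these shares. A match is a description of letters, not of a bound site. Eif4ebp1 and Eif3e were among the 12 members without a start site in that table.

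Other genes of translation control were taken from lists written with earlier results of these data known, and they are described by counts. These counts stand beside all tested genes, of which 8.96% rose, 11.4% fell and 20.3% were called in either direction. In the list on eIF2 phosphorylation, 3 of 11 tested genes rose and 1 fell. Ppp1r15a, which encodes GADD34, the inducible subunit of the eIF2 phosphatase, had 24.1, 25.4 and 24.3 FPKM in bKO, against 19.0, 18.6 and 17.4 FPKM in control (log2 fold change 0.41, SE 0.047, limma adjusted p = 0.0023). The mRNA of ATF4, a factor translated when eIF2 is phosphorylated, was at 133.7, 146.6 and 128.9 FPKM in bKO and at 112.1, 117.5 and 104.3 FPKM in control (log2 fold change 0.29, SE 0.064, limma adjusted p = 0.021). Eif2ak3, the PERK gene left out of the set, was at 16.9, 16.9 and 16.7 FPKM in bKO and at 13.7, 15.3 and 13.7 FPKM in control (log2 fold change 0.23, SE 0.051, limma adjusted p = 0.024). All 3 were apart between the groups, and the call for Ppp1r15a held in each of 16 alternatives, that for Atf4 in 12 and that for Eif2ak3 in 10. By limma the adjusted p of Atf4 was 0.058 to 0.059 without bKO replicate 1 or 2 or control replicate 1, and that of Eif2ak3 was 0.057 to 0.078 without any 1 library other than control replicate 2. Ppp1ca, a catalytic phosphatase subunit gene, fell by 0.15 on the log2 scale (limma adjusted p = 0.025), with the sign turned under total scaling at 0.02 and the call kept in 8 of 16 alternatives. Its limma adjusted p was 0.065 to 0.084 without bKO replicate 1, 2 or 3 or control replicate 1. The 7 uncalled genes included Dnajc3, a PERK inhibitor, and Ppp1r15b, the constitutive phosphatase subunit.

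Of 15 tested target genes of ATF4, 12 rose and 0 fell, beside 8.96% and 11.4% of all tested genes. The median log2 fold change of the list was 0.67, beside -0.01 over all tested genes. Nupr1, a stress-induced regulator, had 51.9, 56.2 and 50.8 FPKM in bKO, against 5.34, 4.43 and 4.32 FPKM in control (log2 fold change 3.25, SE 0.077, limma adjusted p = 1.2e-05). Phgdh, the first enzyme of serine synthesis, had 24.0, 24.6 and 21.5 FPKM in bKO, against 8.32, 8.59 and 7.55 FPKM in control (log2 fold change 1.41, limma adjusted p = 0.00015). Chac1, which degrades glutathione, and Ddit3, which encodes CHOP, had log2 fold changes of 1.86 and 1.05. The cystine transporter gene Slc7a11 did not pass the filter and was not tested. It was at 0.494, 0.420 and 0.501 FPKM in bKO and at 0.0134, 0.0333 and 0.0266 FPKM in control, without overlap. Slc3a2 had a log2 fold change of -0.15 (limma adjusted p = 0.11). Eif4ebp1, at 0.81, lay above the median of this list but below Nupr1, Chac1, Trib3 (1.79), Phgdh, Stc2 (1.26), Psat1 (1.14) and Ddit3.

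The list on mTORC1 and the eIF4E kinases held 1 rise and 1 fall among 15 tested genes, beside 8.96% and 11.4% of all tested genes. That count is not read as a change of the list. Mknk1, which encodes MNK1, a kinase that phosphorylates eIF4E, was at 16.0, 15.8 and 16.2 FPKM in bKO and at 9.97, 10.9 and 10.3 FPKM in control. Its groups were far apart (log2 fold change 0.58, SE 0.046, limma adjusted p = 0.00059), whereas Mknk2 had a log2 fold change of 0.02 (limma adjusted p = 0.88). Pdcd4, an inhibitor of eIF4A, had 37.0, 34.5 and 36.8 FPKM in bKO and 41.6, 46.0 and 42.1 FPKM in control (log2 fold change -0.25, limma adjusted p = 0.016; 0.31 under total scaling and 0.056 without bKO replicate 2). Mtor, Rptor and Mlst8, the core genes of mTORC1, were not called, with log2 fold changes of -0.02, -0.08 and 0.00. Deptor (-0.11) and Tsc2 (0.10) were not called either.

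Elongation factor genes held 1 rise and 3 falls among 8 tested, beside 8.96% and 11.4% of all tested genes. Eef1a2 rose by 0.48 on the log2 scale (limma adjusted p = 0.0065), in each of 16 alternatives. Its abundant paralog Eef1a1 was at 868.5, 892.4 and 895.2 FPKM in bKO, against 1063, 1073 and 1020 FPKM in control (log2 fold change -0.25, limma adjusted p = 0.0097). Eef1b2 fell by 0.23 and Eef2 by 0.21 on the log2 scale, and no fall of the 3 was called under quantile normalization or under total scaling, where the fold changes were -0.07 for Eef1a1, -0.06 for Eef1b2 and -0.04 for Eef2. The Eef2 call was kept in 7 of 16 alternatives, and its limma adjusted p was 0.053 to 0.086 without any 1 library other than control replicate 3. The paralogs Eef1a2 and Eef1a1 thus had opposite signs.

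In the list of other initiation and cap-side proteins, 1 of 20 rose and 4 fell, beside 8.96% and 11.4% of all tested genes. That count too is not read as a change of the list. Those that fell were Pabpc1, the main cytoplasmic poly(A)-binding protein gene (log2 fold change -0.28, limma adjusted p = 0.021), Abcf1 (-0.22, limma adjusted p = 0.014), Paip1 (-0.17, limma adjusted p = 0.048) and the helicase gene Ddx3x (-0.16, limma adjusted p = 0.026). All 4 calls were lost under total scaling, where Ddx3x turned to 0.01. The call was kept in 14 of 16 alternatives for Abcf1, 9 for Pabpc1, 7 for Ddx3x and 5 for Paip1. Cyfip2 rose by 0.16 on the log2 scale (limma adjusted p = 0.048), a call kept in 8 of 16 alternatives. By limma no call for Paip1 (adjusted p 0.061 to 0.14) or Cyfip2 (0.051 to 0.13) was kept when any 1 of the 6 libraries was left out. Ddx3x lost its call (0.056 to 0.094) without any 1 library other than control replicate 2, Pabpc1 (0.062 to 0.073) without bKO replicate 1 or 2 or control replicate 1 or 2, and Abcf1 (0.0501) without bKO replicate 2. Dohh, the second enzyme of the hypusine pathway that modifies eIF5A, fell by 0.24 (limma adjusted p = 0.038; called in 5 of 16 alternatives, and at 0.077 to 0.12 without any 1 library other than control replicate 1), and Dhps, the first, had a log2 fold change of -0.21 (limma adjusted p = 0.080). Of 6 termination and recycling genes, Gspt2 alone was called, with a rise of 0.33 (limma adjusted p = 0.036). That call was kept in 9 of 16 alternatives, and the limma adjusted p was 0.055 to 0.10 without any 1 library other than bKO replicate 3.

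Cell type markers also moved with the groups, and their counts stand beside 8.96% of all tested genes that rose and 11.4% that fell. Of 7 beta-cell markers, 5 fell, and their summed level was 130600 to 139600 FPKM in bKO and 200700 to 222400 FPKM in control. Of 7 endothelial markers, 3 rose (summed 219 to 225 FPKM in bKO and 174 to 211 FPKM in control), and of 5 tested macrophage markers 1 fell (21.0 to 26.2 FPKM in bKO and 38.5 to 40.3 FPKM in control). Of 5 delta and PP markers 2 rose, Ppy and Pyy, whereas Sst, Hhex and Rbp4 were not called. That list summed to 16340 to 19380 FPKM in bKO and 9910 to 12100 FPKM in control. Alpha-cell markers held 1 rise of 5, mesenchymal markers 1 of 5 and Schwann cell markers 1 of 3. Acinar markers summed to 104 to 145 FPKM in bKO and 51.6 to 162 FPKM in control with 1 rise among 9 tested and Ptf1a at 0, no duct marker of 3 was called, and the 1 tested lymphocyte marker fell. Initiation factors are made by every cell type of the islet, and the part of these shifts in the fold changes of the members was not tested.

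The called and uncalled members also differed in median level and length, which was not tested. The median level was 40.5 FPKM for members that rose, 33.1 FPKM for those that fell and 12.0 FPKM for those not called. The ranges overlapped, at 12.1 to 61.4, 10.4 to 112 and 0.971 to 148 FPKM in that order. The median gene length was 3511 bases for the genes that rose, 3812 bases for those that fell and 4960 bases for those not called. The called members lay on 8 chromosomes.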

How the data were processed

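Poly(A)-selected RNA of islets from 3 bKO and 3 control mice was sequenced in pairs of reads, and per the labels each replicate is a separate biological sample. Per the labels, the authors aligned reads to GRCm38 with HISAT2 2.0.5 and counted them with featureCounts 1.5.0-p3. DESeq2 1.20.0 and CASAVA are further tools in the submitters' processing notes, without a stated role. Not given in the sources used here are the annotation release and the handling of strand and of reads with several matches. The deposited values are FPKM. Multiplied by gene length and 1 factor per library, 100% of values above 0 came to a whole read within 0.01, and the factors carry size factors (1.04 to 1.10 in bKO, 0.923 to 0.988 in control) rather than totals alone. Gene positions are those of the deposited table. Libraries of 1 group differed beyond counting error (chi-square per degree of freedom 4.09 to 6.50).

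limma 3.58.1 in R 4.3.3 was fitted to log2(FPKM + 1), bKO against control, with an empirical Bayes trend, over all 15717 genes with at least 0.5 FPKM in at least 3 libraries. Benjamini-Hochberg adjusted p-values under 0.05 were called, and the step was tested on simulated data. Fold changes on this scale understate those of genes with few reads. Named are Ythdc1, all called members, all members of the eIF4E-binding, eIF2 kinase and eIF2B roles, in other roles the most abundant member and that with the smallest adjusted p, members with a near-identical paralog, and genes of the pathway lists with the smallest adjusted p. Members and lists were chosen with earlier results of these data known. Copies and overlaps were found by alignment and position in GENCODE vM21, in which 50 members had the same start and end, and start sites come from RefSeq, GRCm38.p6. Of the 53 members, 21 share exon bases with another gene and 19 have a stretch of at least 100 bases that is at least 98% identical elsewhere. The 16 alternatives were other scalings (3), pseudocounts (2) and filters (3), voom on recovered reads, the replicate number as a block, and leaving out each of 6 libraries. All other steps ran in Python 3.11.15 with numpy 2.4.6, pandas 2.3.3 and matplotlib 3.10.9.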

Additional observations from a re-analysis of the deposited data

How the results depend on the processing

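The 10 called members kept their sign in all 16 alternatives and their call in 136 of 160 member and alternative combinations. Total scaling gave 16 members higher and 2 lower, with a median log2 fold change of 0.14 for members, and quantile normalization gave 6 higher. Scaling by totals without hormone and acinar genes gave a median of 0.032. Eif4g1 and Eif4a3 turned under total scaling, to fold changes of 0.17 (limma adjusted p = 0.028) and 0.14 (limma adjusted p = 0.039), in place of -0.01 and -0.03. Leaving out 1 library gave 2 to 3 members higher, 3 to 9 lower and medians of -0.05 to -0.01, with the fewest calls (2 and 3) without bKO replicate 1, followed by 3 and 4 without control replicate 1. The cause of these shifts was not tested.

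The replicate number as a block gave 2 members higher and 4 lower, and 925 and 1152 of all tested genes. By limma it ended the calls of Eif3e (adjusted p = 0.052), Eif4b (0.056), Eif2s3x (0.059) and Eif3c (0.10). Same-numbered libraries did not deviate together (correlations -0.052, -0.014 and -0.073, and no library correlated best with its own number), so no pairing by number showed in these values. With 3 libraries per group this check cannot exclude a pairing. Depth limits Eif4ebp3 and Eif3j2, with as few as 5 and 17 reads in a library.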
